A study of Mus musculus with 8 samples.

Results

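Trp53, the gene of the tumour suppressor p53, and 9 genes that p53 binds and activates directly were followed in muscle stem cells of young and old mice. The genes were taken by symbol from the deposited expression table, and all 10 (Trp53, Mdm2, Ccng1, Bax, Trp53inp1, Sesn1, Phlda3, Zmat3, Eda2r and Btg2) were found among its 24630 genes. Muscle stem cells, or satellite cells, are the resident stem cells of skeletal muscle and lie quiescent on the fibres until injury. They came from limb muscles of male C57BL/6 mice without any stated genetic change or treatment, of which 4 were young (4 months) and 4 old (22 months), and each library was made from 1 animal. The cells were sorted as CD45-, CD31-, Sca1- and VCAM+ and used without culture, and polyadenylated RNA was sequenced.

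p53 is a transcription factor that is held low by the ubiquitin ligase Mdm2 and accumulates after DNA damage and other stresses, mostly through slower breakdown of the protein rather than through more mRNA. Its target genes arrest the cell cycle, repair DNA, limit oxidative damage or start apoptosis, and Mdm2 is itself a target, which closes a negative feedback loop. In satellite cells p53 activity is known for its part in survival during activation and in the choice between quiescence and senescence.

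p53 binds DNA at a decamer motif, usually in pairs, and the promoters of these genes were searched for its letters; binding was not measured. The windows are 300 bases long, from 250 bases before to 50 bases after a RefSeq transcription start (build GRCm38.p6), and 8 of the 10 genes had 9 of them. A window was searched for the p53 decamer consensus, which is purines, a C, A or T bases, a G and pyrimidines, and which reads alike on both strands. It was present in 5 of the 9 windows and in 8.36% of all 32851 windows of the table. A match is a description of letters, and p53 often needs another decamer nearby or binds in an intron. The 5 stretches are given 5′ to 3′ on the strand of the gene, with the decamer in capitals and 20 bases on each side, because they stand in front of the gene of p53 itself and of 4 of its targets.
Trp53: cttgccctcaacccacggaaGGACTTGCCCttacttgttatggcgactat
Mdm2: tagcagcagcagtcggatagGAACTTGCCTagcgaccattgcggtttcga
Ccng1: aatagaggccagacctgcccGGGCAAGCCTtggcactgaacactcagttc
Bax: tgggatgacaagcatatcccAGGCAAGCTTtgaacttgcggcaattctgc
Sesn1: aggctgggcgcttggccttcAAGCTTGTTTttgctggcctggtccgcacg

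The Trp53 stretch lies at chr11:69580264-69580313 on the plus strand, and its decamer begins 75 bases before the start. That of Mdm2 is at chr10:117710915-117710964 (minus strand, 186 bases before the start) and that of Ccng1 at chr11:40755442-40755491 (minus strand, 185 bases). The Bax stretch is at chr7:45467070-45467119 (minus strand, 201 bases). Sesn1 has a pair of annotated starts, and the decamer is at the downstream one, at chr10:41887246-41887295 (plus strand, 173 bases before it). No match was found in the upstream Sesn1 window or in those of Phlda3, Eda2r and Btg2.

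Levels are given as RPKM on library totals, that is, reads per kilobase of merged exons and per M reads in genes (M, the SI prefix mega), with the reads recovered from the deposited RPKM values. The young libraries held 1.91 to 6.56 M reads in genes and the old ones 20.1 to 24.9 M, and silent receptor genes (olfactory, vomeronasal and trace amine, 1429 in all) averaged 0.202 to 0.979 RPKM in young against 0.0163 to 0.0358 RPKM in old libraries. The limit that a count of 0 allows, 3 reads, corresponds in a gene of 1 kb to 0.458 to 1.57 RPKM in young and 0.121 to 0.149 RPKM in old libraries, for counting error only. The labels state 26 to 37 M reads, and why fewer lay in genes, most of all in young libraries, was not tested. Depth, here the reads in genes, and this low-level signal move with age in every library. Their part in a difference cannot be told apart from age for genes at a few RPKM. Of 9 muscle stem cell markers 1 rose and 3 fell at an adjusted p under 0.05, beside 7.16% and 23.3% of all tested genes. Their summed level overlapped between the groups. With the RPKM as deposited 3 rose and 1 fell (41.2% and 7.37%), and with median-of-ratios scaling 1 and 2 (14.9% and 15.4%). Pax7 stood at 17.6 ± 3.50 RPKM in young and 10.7 ± 2.47 in old libraries (SD, n = 4 each) and Myf5 at 160 ± 26.1 and 189 ± 23.9. As deposited, their log2 fold changes of old against young were -0.031 and 0.945 (limma, adjusted p = 0.910 and 0.00473). The marker called higher on library totals was Vcam1, the gene of the VCAM protein used for sorting. Its mean was 274 RPKM (SD 76.1) at 4 months and 473 RPKM (SD 112) at 22 months, with overlapping ranges. The log2 fold change of Vcam1 was 0.791 on library totals and 1.485 as deposited (limma, adjusted p = 0.0176 and 0.00213). Ptprc, the gene of CD45, was at 1.43 ± 1.02 and 0.197 ± 0.144 RPKM. Of 8 sums of markers of other cell types, that of 6 tenocyte genes was higher in old libraries (624 to 968 against 1656 to 5046 CPM, counts per M reads in genes) and that of 8 endothelial genes lower (437 to 552 against 192 to 433 CPM), each without overlap. The leukocyte, fibro-adipogenic, pericyte, muscle fibre, erythroid and Schwann sums overlapped, and the part of any of them in the results was not tested.

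In old animals (n = 4) Btg2 and Sesn1 made up a smaller share of reads than in young animals (n = 4). They are 2 of 9 tested genes called lower on library totals, where 23.3% of all tested genes were. Btg2, an antiproliferative factor, had 0.466 times its young mean and Sesn1, an antioxidant inhibitor of mTORC1 signalling, 0.472 times. Trp53 and Bax had higher means in old animals, 1.32 and 1.27 times the young mean, and did not pass the test on library totals. Mdm2 (0.944 times) and the other tested targets did not pass either, and Zmat3 was too low to be tested. With the RPKM as deposited Btg2 and Sesn1 were not called. Trp53, Bax, Eda2r and Mdm2 were called higher there, beside 41.2% of all tested genes. With median-of-ratios scaling Trp53 and Bax were called higher and Btg2 and Sesn1 lower, beside 14.9% and 15.4% of all tested genes.

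The order of levels per length was nearly the same in both age groups. Btg2 was highest, above 99.5% of the 11402 tested genes, followed by Trp53, above 96.6%. Next came Mdm2, Eda2r and Bax, whose young ranges were 18.7 to 27.8, 9.59 to 17.1 and 10.2 to 12.6 RPKM, so that Mdm2 stood clear of both and the ranges of Eda2r and Bax overlapped. In old libraries Mdm2 (17.7 to 24.8 RPKM) overlapped Eda2r (12.1 to 23.9) and stood clear of Bax (12.5 to 15.9), and Eda2r and Bax overlapped again. Ccng1 and Sesn1 overlapped in young animals (7.73 to 9.71 and 6.83 to 9.98 RPKM) and not in old ones (5.34 to 10.1 and 3.38 to 4.76 RPKM). Phlda3 and Trp53inp1 followed, with ranges that overlapped in both groups, and Zmat3 was lowest.

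**Figure D1:**
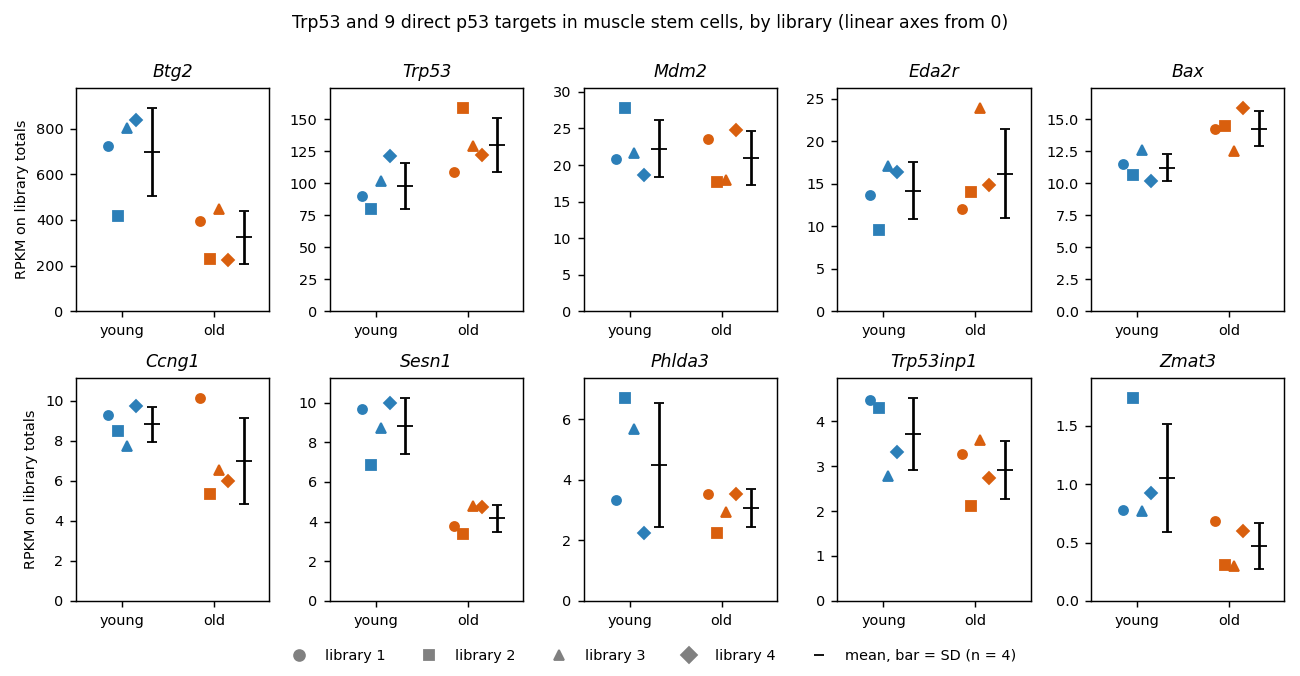
Level of each gene in RPKM on library totals (linear axes from 0) in 4 young and 4 old libraries, ordered by mean, with a symbol for each library number and the mean ± SD beside the points. All 4 old libraries lie below all 4 young ones for Sesn1 and Zmat3, and the groups overlap for the other 8 genes.

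Trp53 (chromosome 11, 69580359 to 69591873, plus strand) measured 89.8, 79.7, 102 and 122 RPKM in young libraries 1 to 4 and 109, 159, 129 and 122 RPKM in old libraries 1 to 4. Old library 2 was the highest, and young library 4 lay above old library 1, so the groups overlapped. The log2 fold change of old against young, on log2(RPKM + 1) as for all below, was 0.40 ± 0.16 (SE; limma with Benjamini-Hochberg adjustment over all tested genes, adjusted p = 0.0742), with a 95% interval from 0.06 to 0.75. Without young library 4 Trp53 was called higher (0.51, adjusted p = 0.0419), and with any other single library left out it was not. The exons of Trp53 overlap those of no other gene in GENCODE M21. Wrap53, the neighbouring antisense gene, had a log2 fold change of 0.00 ± 0.14.

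Mdm2, the ubiquitin ligase that marks p53 for breakdown, measured 20.9, 27.8, 21.6 and 18.7 RPKM in the young libraries and 23.5, 17.7, 18.0 and 24.8 RPKM in the old. The highest and the lowest value of Mdm2 came from library 2 of the young and of the old group, and the ranges lay almost on top of each other. Its log2 fold change was -0.08 ± 0.16 (adjusted p = 0.719), with an interval from -0.43 to 0.27. Ccng1 encodes cyclin G1, which recruits a phosphatase to Mdm2 and so acts in the same feedback. It measured 9.30, 8.49, 7.73 and 9.71 RPKM in young and 10.1, 5.34, 6.53 and 5.97 RPKM in old libraries. The last 3 of these old libraries were below every young one and old library 1 was above them all, with a log2 fold change of -0.33 ± 0.17 (adjusted p = 0.167). Without old library 1 Ccng1 was called lower (-0.50, adjusted p = 0.0296).

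Among the targets that promote cell death, Bax, which opens the outer mitochondrial membrane, measured 11.5, 10.6, 12.6 and 10.2 RPKM in young and 14.2, 14.4, 12.5 and 15.9 RPKM in old libraries. Young library 3 stood just above old library 3, and this pair kept the groups from separating. Bax had the smallest spread of the 10 genes within either group, with coefficients of variation of 9.58% in young and 9.63% in old animals. Its log2 fold change was 0.32 ± 0.12 (adjusted p = 0.0601), with an interval from 0.06 to 0.58. A GENCODE gene model named Gm45808 shares 192 of the 1576 exon bases of Bax on the same strand, and how the authors' counting treated such reads is not given in the sources used here.

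Eda2r, a receptor of the tumour necrosis factor family for ectodysplasin A2, measured 13.7, 9.59, 17.1 and 16.4 RPKM in young and 12.1, 14.0, 23.9 and 14.9 RPKM in old libraries. Only old library 3 exceeded the young range. Its log2 fold change was 0.16 ± 0.22 (adjusted p = 0.594), between -0.33 and 0.65, with -0.00 when young library 2 was left out and -0.03 when old library 3 was. Trp53inp1, a stress protein of autophagy and cell death, measured 4.47, 4.28, 2.78 and 3.31 RPKM in young and 3.28, 2.11, 3.57 and 2.73 RPKM in old libraries (log2 fold change -0.26 ± 0.17, adjusted p = 0.257). Phlda3, an inhibitor of Akt at the membrane, ranged more widely in young libraries (3.33, 6.71, 5.68 and 2.25 RPKM) than in old ones (3.55, 2.25, 2.94 and 3.55 RPKM). Its young values rest on 14 to 58 reads, and the log2 fold change was -0.36 ± 0.25 (adjusted p = 0.291).

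Sesn1 (chromosome 10, 41809935 to 41908424, plus strand) encodes sestrin 1, which senses leucine, restrains mTORC1 and lowers oxidative stress. It measured 9.69, 6.83, 8.73 and 9.98 RPKM in young libraries and 3.78, 3.38, 4.76 and 4.72 RPKM in old ones. The highest old value lay below the lowest young value. The log2 fold change of Sesn1 was -0.92 ± 0.15 (adjusted p = 0.00353), and it was lower in old animals with each library left out in turn (-1.03 to -0.85, adjusted p at most 0.0122). Its paralogue Sesn2, which responds to p53 and to the integrated stress response, had a log2 fold change of 0.27 ± 0.21 (adjusted p = 0.337), with 16.2 ± 2.66 RPKM in young and 20.3 ± 6.34 RPKM in old animals (SD, n = 4 each). As deposited, Sesn2 was called higher (0.93, adjusted p = 0.00739) with overlapping ranges, beside 41.2% of all tested genes called higher.

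Btg2 (chromosome 1, 134075170 to 134079120, minus strand), a regulator of mRNA deadenylation that slows the cell cycle, measured 723, 416, 804 and 839 RPKM in young libraries and 396, 227, 449 and 225 RPKM in old ones. Young library 2 was the lowest of its group and stood just under old library 3, so the groups overlapped by that library alone. Btg2 had a log2 fold change of -1.12 ± 0.28 (adjusted p = 0.0157), and of -1.35 without young library 2. It is also an immediate early gene, induced within minutes of growth factor signals or tissue dissociation. The sum of 17 other immediate early and dissociation genes was 17290 to 21420 CPM in young and 7484 to 14000 CPM in old libraries, which did not overlap (exact two-sided permutation test, p = 0.0286, the smallest that 70 assignments can give, and 0.0953 adjusted over 10 marker lists). Of these 17 genes 9 fell and 0 rose, among them Fos by 1.15 ± 0.21 and Atf3 by 1.21 ± 0.22, where 7.16% of all tested genes were called higher and 23.3% lower. On the deposited scale 1 fell and 1 rose, beside 7.37% of all tested genes lower and 41.2% higher. Fos was at -0.45 (adjusted p = 0.144) and Atf3 at -0.52 (adjusted p = 0.103) there, and Btg2 was not called either. With median-of-ratios scaling 6 of the 17 fell and 0 rose, beside 15.4% of all tested genes lower and 14.9% higher. The part of this response in the level of Btg2 was not tested.

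**Figure D2:**
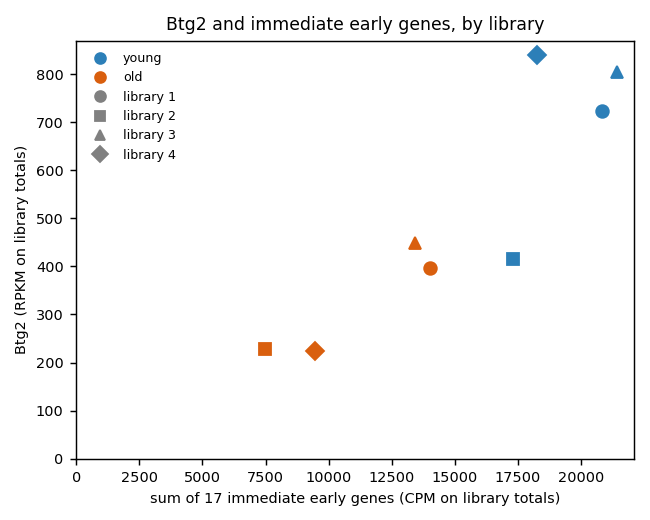
Btg2 in RPKM on library totals against the summed level of 17 immediate early and dissociation genes (CPM) in each of 8 libraries, coloured by age with a symbol for each library number. Old libraries 2 and 4 are lowest on both axes, and young library 2 has the lowest sum and the lowest Btg2 of the young group. The highest young Btg2 is in library 4 and the highest young sum in library 3. The highest old Btg2 is in library 3 and the highest old sum in library 1. Both measures differ between the groups, and their relation was not tested.

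Zmat3, an RNA-binding regulator of splicing, measured 0.779, 1.74, 0.774 and 0.922 RPKM in young and 0.684, 0.310, 0.298 and 0.601 RPKM in old libraries. The groups did not overlap on library totals, and the mean of all 8 libraries, 0.763 RPKM, was under the minimum of 1 RPKM set for the test. As deposited the groups overlapped, with old library 1 at 0.8055 RPKM above young library 1 at 0.6353 RPKM. The young values rest on 24 to 60 reads and were 1.94, 1.78, 3.82 and 2.57 times the mean of the silent genes in young libraries 1 to 4, against 14.9 to 19.1 times in the old ones. Fitted without the filter, Zmat3 had a log2 fold change of -0.46 ± 0.19 (adjusted p = 0.072).

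Counted together, 0 of the 9 tested genes rose and 2 fell on library totals, where 7.16% of all tested genes were called higher and 23.3% lower. Unadjusted limma p-values were 0.027 for Trp53 and 0.0199 for Bax (higher), and 7.08e-05 for Sesn1 and 0.00212 for Btg2 (lower). The share of all tested genes at an unadjusted threshold was not counted. With limma-voom on the recovered reads 0 of the 9 were called higher, and Sesn1 and Btg2 lower. Of all 11402 tested genes 799 were called higher there and 2992 lower. A count of 2 is no more than the background on library totals gives. The 9 genes had a median log2 fold change of -0.26 beside -0.21 for every gene tested. The ranges of old and young did not overlap for 1 of the 9, Sesn1, beside 25.6% of all tested genes that lay lower and 7.62% that lay higher without overlap. In whole-cell RNA of a sorted population, fewer cells that express a gene and less RNA per cell cannot be told apart.

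The scaling between libraries decided several signs. The deposited RPKM were scaled by library sizes that were 1.14 to 1.64 times the reads in young and 0.678 to 0.849 times the reads in old libraries, and on that scale the tested genes together had a median of 0.35. There Trp53 (1.09 ± 0.26, adjusted p = 0.00627), Bax (0.96 ± 0.18, adjusted p = 0.0019), Eda2r (0.81 ± 0.28, adjusted p = 0.03) and Mdm2 (0.58 ± 0.16, adjusted p = 0.0125) were called higher. These are 4 of the 9 tested genes, beside 41.2% of all tested genes, and 0 were called lower, beside 7.37%. The old and young ranges did not overlap for 3 of the 9 there, Trp53, Mdm2 and Bax, all higher, beside 38.7% of all tested genes higher and 6.39% lower without overlap. Sesn1 and Btg2 were at -0.34 and -0.42 there and not called (adjusted p = 0.165 and 0.306). The deposited Trp53 values were 73.2, 48.7, 89.6 and 105.5 RPKM in young and 129, 234, 155 and 154 RPKM in old libraries.

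Size factors from the median of ratios, which bring the median of all tested genes to -0.02, gave another view. On that scale Trp53 (0.64, adjusted p = 0.0403) and Bax (0.54, adjusted p = 0.0142) were called higher and Sesn1 (-0.72, adjusted p = 0.00927) and Btg2 (-0.88, adjusted p = 0.0468) lower, where 14.9% of all tested genes were called higher and 15.4% lower. Without young libraries 1 and 2, the shallowest, Trp53 was at 0.21 on library totals, against 0.40 with them. The log2 fold changes of Mdm2, Ccng1, Trp53inp1 and Phlda3 were below 0 on library totals and above 0 on the deposited scale.

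**Figure D3:**
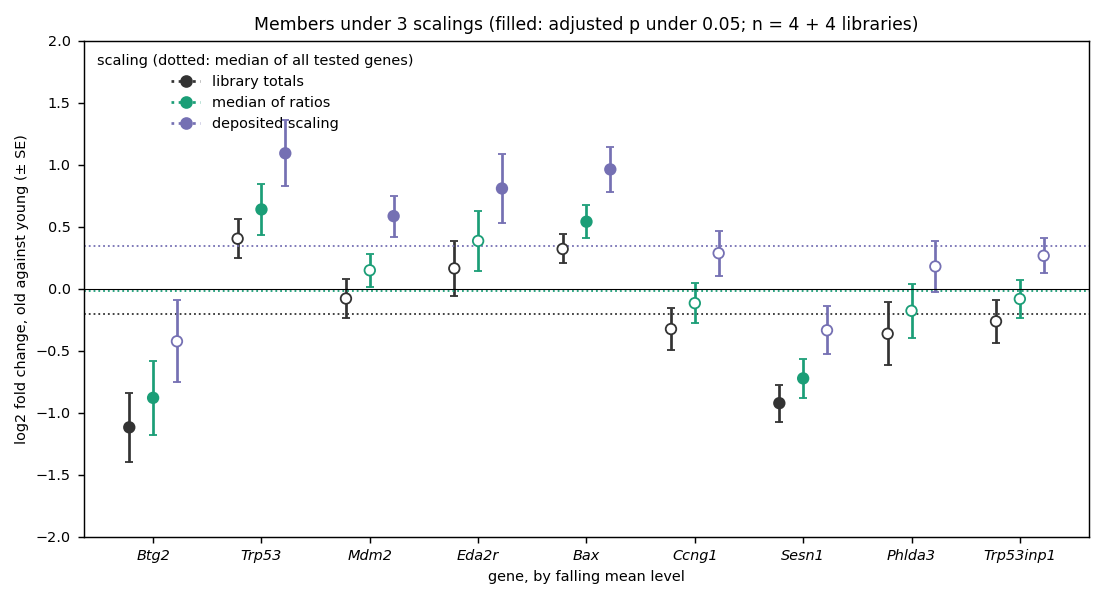
Log2 fold change of old against young (± SE, n = 4 libraries a group) of the 9 tested genes under 3 scalings, with filled points for an adjusted p under 0.05 and a dotted line at the median of all tested genes for each scaling. Sesn1 and Btg2 are the lowest under each scaling, and Trp53 and Bax are the highest under the deposited scaling, at 1.09 and 0.96.

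The level of a target relative to Trp53 in the same library does not depend on the scaling. Sesn1 stood at 10.8, 8.58, 8.58 and 8.21% of the Trp53 level in young libraries and at 3.46, 2.13, 3.69 and 3.87% in old ones. Btg2 stood at 523 to 805% in young and 143 to 363% in old libraries, and Zmat3 at 0.759 to 2.18% and 0.195 to 0.627%. For these 3 of the 9 targets the old libraries lay below the young without overlap, and for the other 6 the ranges overlapped. Among all tested genes 34.1% lay lower than in young animals relative to Trp53 without overlap and 0.886% higher. Zmat3, below the filter, does not enter that share, so of these 3 targets only Sesn1 and Btg2 compare with it.

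Bax kept nearly the same proportion to Trp53, with 11.7 ± 2.29% in young and 11.2 ± 2.1% in old animals (SD, n = 4 each). Mdm2 had 23.7 ± 8.17% and 16.7 ± 5.01%, with 34.8% in young library 2 and 11.1% in old library 2 as the ends of its range. Eda2r had 14.4 ± 2.08% and 12.6 ± 4.14%. The means of Ccng1 (9.15 ± 1.58% and 5.65 ± 2.54%), Trp53inp1 (3.95 ± 1.42% and 2.33 ± 0.742%) and Phlda3 (4.89 ± 2.8% and 2.46 ± 0.805%) were lower in old animals, with overlapping ranges. Old library 2, with the highest Trp53, which is the divisor, held the lowest old proportion for all 9 targets.

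**Figure D4:**
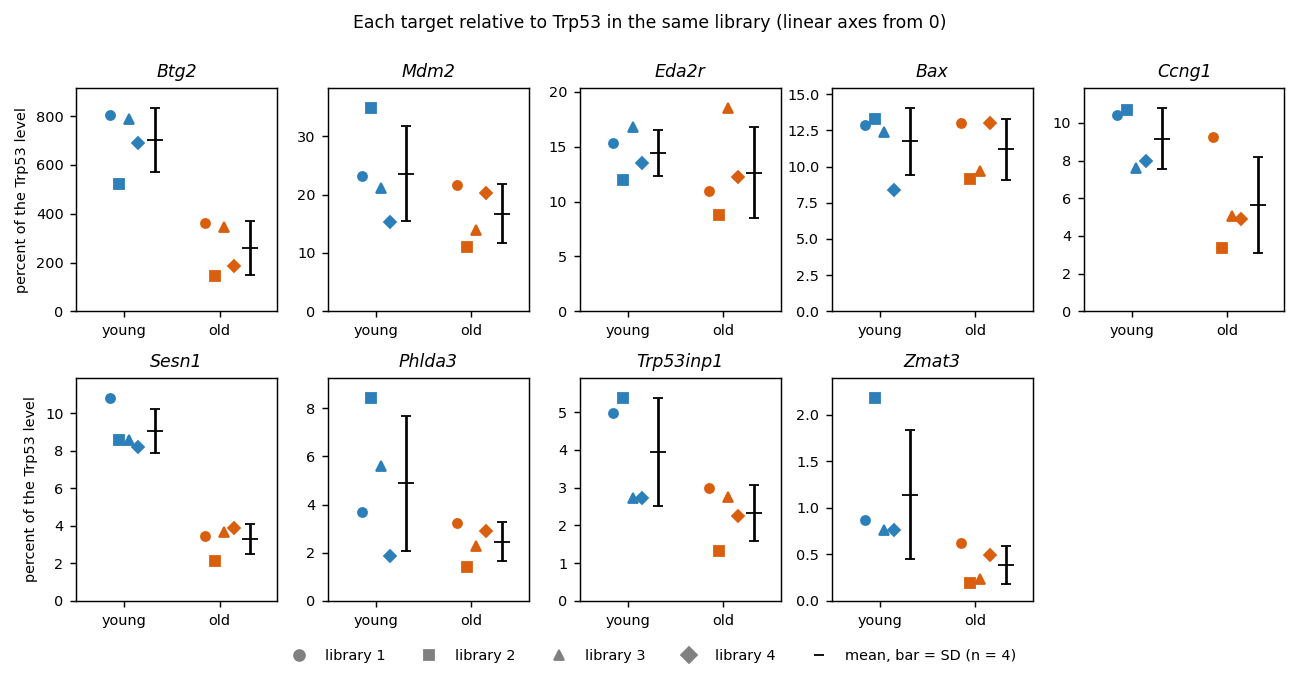
Each target as a percent of the Trp53 level in the same library (both in RPKM, linear axes from 0) in 4 young and 4 old libraries, with the mean ± SD beside the points. Sesn1, Btg2 and Zmat3 separate by age, and old library 2 is the lowest old point in all 9 panels.

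Of 46 other p53 targets 40 were tested on library totals, and 3 rose, 9 fell and 28 were not called, with a median log2 fold change of -0.18. The shares, 7.5% higher and 22.5% lower, lie near the 7.16% and 23.3% of all tested genes, so the counts show nothing that sets these targets apart. On the deposited scale 16 of the 40 were called higher and 2 lower (41.2% and 7.37% of all tested genes), and with median-of-ratios scaling 6 and 5 (14.9% and 15.4%), so the balance of higher and lower calls turned with the scaling. Those that rose on library totals were Perp, a membrane protein of desmosomes and apoptosis (1.74 ± 0.19, adjusted p = 0.000813), the nuclease Aen (0.91 ± 0.18, adjusted p = 0.00651) and the lysosomal autophagy protein Dram1 (0.56 ± 0.11, adjusted p = 0.00716). Perp measured 2.09, 1.34, 2.81 and 1.08 RPKM in young and 10.1, 8.04, 7.43 and 7.41 RPKM in old libraries, on 5 to 36 reads in each young and 301 to 397 in each old one, so the groups lay far apart.

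The 9 targets that fell were Igfbp3, Pmaip1, Ckap2, Polk, Apaf1, Ddb2, Dcxr, Plk2 and Fas. Igfbp3, which binds insulin-like growth factors, fell by 1.35 ± 0.31, and Pmaip1, the BH3-only death protein Noxa, fell by 1.00 ± 0.29, from 58.2 ± 20.01 to 29.2 ± 13.3 RPKM (SD, n = 4 each). The translesion polymerase Polk fell by 0.84 ± 0.17 and the damage sensor Ddb2 by 0.72 ± 0.16, both from a few RPKM. The kinase Plk2 fell by 0.55 ± 0.17 and the death receptor Fas by 0.43 ± 0.14, at 281 ± 65.1 and 257 ± 26.7 RPKM in young animals. After the mean of the silent genes was subtracted from every gene of a library, 6 of the 9 were still called, without Apaf1 (-0.58, adjusted p = 0.0811), Dcxr (-0.30, adjusted p = 0.412) and Fas, whose fold change stayed at -0.43 (adjusted p = 0.0561). With median-of-ratios scaling 5 were, without Dcxr, Fas, Plk2 and Pmaip1, and on the deposited scale 2, Polk and Igfbp3. The 3 targets that rose were called under each of these 3 settings. Once all libraries were thinned to the same number of reads, 4 of the 12 targets were not called, which were Dram1 (adjusted p = 0.057), Ddb2 (0.0575), Plk2 (0.0518) and Fas (0.0949). Without young libraries 1 and 2, Apaf1 (adjusted p = 0.067), Ckap2 (0.0732), Dcxr (0.053) and Fas (0.0578) were not called. In the 8 fits that each omit 1 library, Dcxr and Plk2 each lost their call in 6 cases, Apaf1 and Fas in 5 and Pmaip1 in 4, with a highest adjusted p of 0.113 (Fas), and the other 7 called targets in 0.

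The cell cycle inhibitor Cdkn1a, the best known p53 target, had 73.2 ± 12.3 RPKM in young and 62.3 ± 12.1 RPKM in old animals (-0.23 ± 0.17, adjusted p = 0.299). On the deposited scale its sign turned, to 0.45, and it was not called there either (adjusted p = 0.134). Gadd45a, of growth arrest and DNA repair, had a log2 fold change of 0.28 ± 0.18 (adjusted p = 0.251) on library totals. As deposited it was called higher without overlap (0.965, adjusted p = 0.00208), as 41.2% of all tested genes were called higher. Median-of-ratios scaling also called Gadd45a higher, beside 14.9% of all tested genes. Bbc3, the death protein Puma, lay below the filter, at 0.753 ± 0.208 RPKM in young and 0.315 ± 0.184 RPKM in old animals.

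Of 30 p53 regulators 26 were tested, and 2 rose, 3 fell and 21 were not called (median -0.11). These are 7.69% higher and 11.5% lower, beside 7.16% and 23.3% of all tested genes. On the deposited scale 15 of the 26 were called higher and 1 lower, beside 41.2% and 7.37% of all tested genes. With median-of-ratios scaling 5 were called higher and 2 lower, beside 14.9% and 15.4%. Usp10, a deubiquitinase that stabilises p53, rose by 0.76 ± 0.14 (adjusted p = 0.00557), from 22.4 ± 3.77 to 38.5 ± 3.86 RPKM. Daxx, a histone chaperone that binds Mdm2, rose by 0.42 ± 0.10 (adjusted p = 0.015). The damage kinases Chek2 and Atm fell by 1.32 ± 0.29 and 0.74 ± 0.22, and Trp53bp1, a factor of break repair, by 0.42 ± 0.13. Chek2 held 6.10 RPKM in young library 2, on 35 reads, against 1.61 to 3.46 RPKM in the other young libraries and 0.429 to 0.863 RPKM in old ones. Atm and Trp53bp1 were not called after subtraction of the silent genes, nor on the deposited scale, and they lost their call in 5 and 6 of these 8 fits. Of these 5 regulators, Daxx (adjusted p = 0.129) and Atm were not called with thinned reads. Mdm4, the partner of Mdm2, had a log2 fold change of -0.13 ± 0.14 (adjusted p = 0.485), and Cdkn2a, whose product Arf blocks Mdm2, had 11 reads in all young and 6 in all old libraries. The sign of Mdm4 turned on the deposited scale, where it was called higher (0.50, adjusted p = 0.0396).

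**Figure D5:**
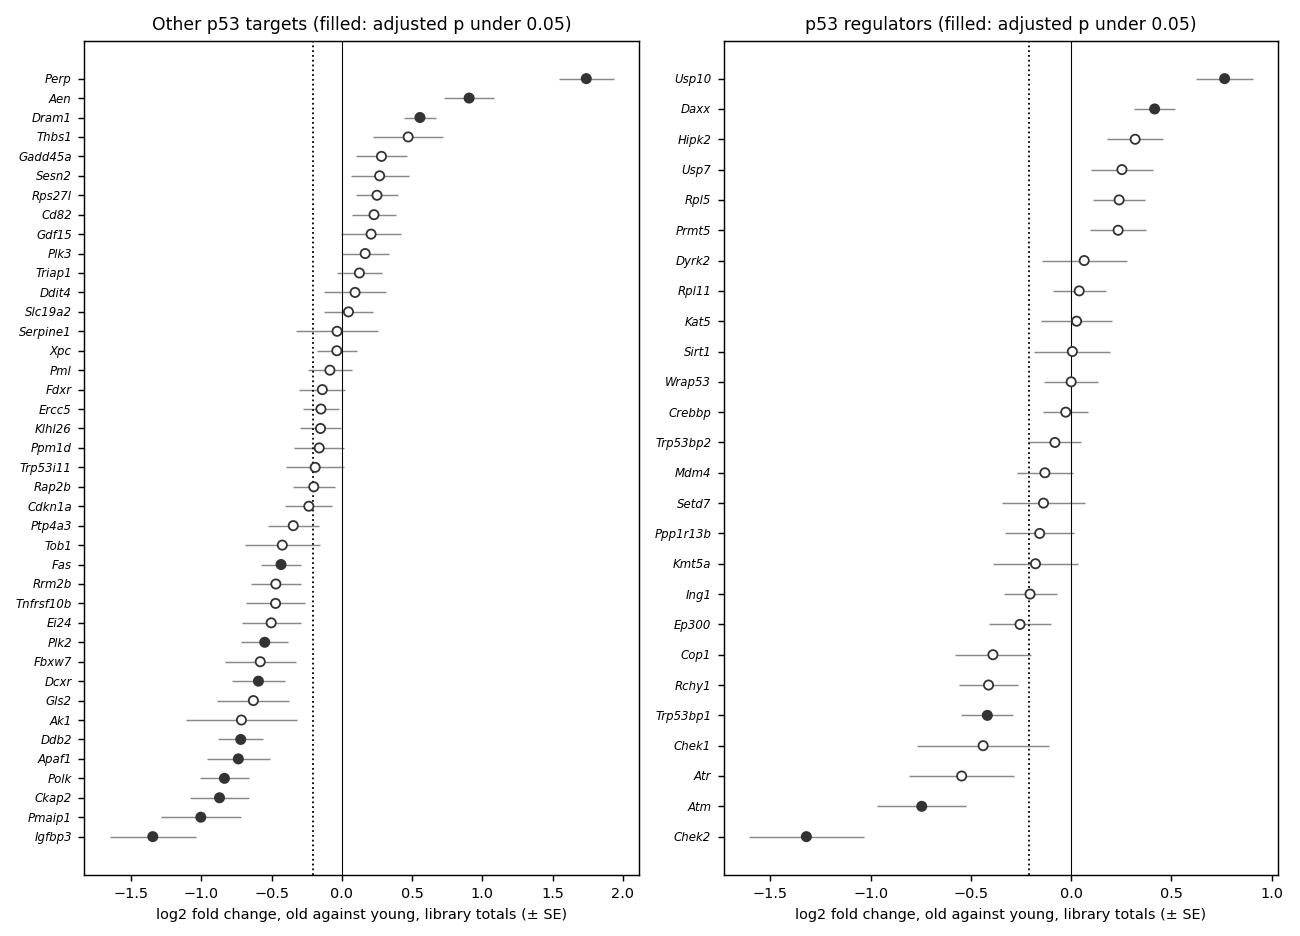
Log2 fold change of old against young on library totals (± SE, n = 4 libraries a group) for 40 other p53 targets and 26 p53 regulators, ordered by value, with filled points for an adjusted p under 0.05 and a dotted line at the median of all tested genes (-0.21). Perp (1.74) and Usp10 (0.76) are the highest of their lists and Igfbp3 (-1.35) and Chek2 (-1.32) the lowest.

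By the likeness of their log2 values over the 8 libraries, the 5 genes closest to Trp53 among 11401 compared were Nup93, Glrx3, Slc11a2, Pgk1 and Plrg1, with Pearson correlations of 0.966 to 0.980. None of the other 9 genes of the group was among them, and Zmat3, below the filter, was not compared. With 5 places among 11401 genes, this does not show whether the targets follow Trp53. The 5 closest to Mdm2 were Smarca4, Pcnx, Vamp2, Usp48 and Bicd2, with 0.972 to 0.989. All 8 libraries enter these values, so differences of depth and age between the groups are part of them, and they are a description over a large search.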

How the data were processed

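RNA of 8 libraries, 1 per mouse, was sequenced by the authors, who deposited 1 table of RPKM. Per the submitters' processing notes Trim Galore, STAR, featureCounts, Subread and edgeR were used with builds mm10 and GRCm38, while versions and settings were not stated in these sources. Per the labels' protocols 10 ng of RNA entered oligo(dT)-primed SMARTer synthesis, which does not mark strand. A zero stood as a fraction of the lowest other value of its gene and was set back to 0. In 100% of 23461 genes with a read the values were whole multiples of 1 read (largest distance from a whole number 0.000454, allowed 0.03), so reads and library totals were recovered. Implied lengths equalled GENCODE M21 merged exons for 81.32% of matched genes (Mdm2 did not match). Genes whose mean reached 1 RPKM on library totals, 11402 in all, entered a limma-trend comparison of log2(RPKM + 1) between old and young animals (threshold 0.05, R 4.3.3 with limma 3.58.1). The fold changes understate low genes. The procedure was tested on simulated data. The members, lists and naming rule (all 10 genes, called genes of the wider lists, the 5 nearest patterns) were chosen with earlier results of these data known. Alternatives changed scaling, filter, pseudocount, test, depth and libraries, and the subtraction of silent-gene signal was chosen after seeing the data. The wider lists comprise 46 targets and 30 regulators, of which 1 (Trp53rk) matched no row of the table. Marker sums, of 10 lists, were compared by exact permutation. p-values measure the spread between libraries of 1 animal each, which at low counts includes counting error.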

Additional observations from a re-analysis of the deposited data

Results flagged for a closer look

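Among 42 sets of 4 libraries examined for a value far from the rest, 2 held one, about what chance gives at 1 in 20. Zmat3 in young library 2 was 1.74 RPKM on library totals, with a gap to the next young library of 0.846 of the range of its group. The mean of the silent receptor genes in that library was 0.979 RPKM, the highest of all 8 libraries. The erythroid marker sum in old library 3 was 78.1 CPM, against 17.7 to 27.9 CPM in the other old libraries.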

How the results depend on the processing

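Sesn1 and Btg2 were called lower under every alternative run except the deposited scale, where 4 of the 9 tested genes were called higher and 0 lower. Of all tested genes 816 were called higher and 2652 lower on library totals, 4695 and 840 as deposited and 1694 and 1757 with median-of-ratios scaling, where 2 of the 9 were higher. On the deposited scale the signs of Mdm2 (0.58), Ccng1 (0.29), Trp53inp1 (0.26), Phlda3 (0.18), Fas (0.26), Plk2 (0.14) and Trp53bp1 (0.13) turned, and Mdm2 was at 0.15 with median-of-ratios scaling. The deposited signs of Cdkn1a (0.45) and Mdm4 (0.50), not called on library totals, turned as well. Lower calls numbered 748 at a minimum of 5 RPKM (fewer genes tested), 9422 without a filter, 1596 with reads thinned to equal totals and 1329 after subtraction of the silent-gene signal. Bax was called higher without the filter, which made 1 of the 9 higher there. Without young libraries 1 and 2 the counts were 539 and 1735, with Mdm2 at 0.046 and Eda2r at -0.09. The cause of these shifts was not tested. With 1 library left out the counts ranged from 520 to 941 higher (fewest without old library 4) and from 1373 to 2629 lower (fewest without old library 2, 1598 without old library 4), and of the 9 genes 0 to 1 were higher and 2 to 3 lower. Mdm2 ranged from -0.161 (without old library 4) to 0.028 (without young library 2), and Eda2r from -0.029 (without old library 3) to 0.281 (without old library 1), with -0.00 without young library 2. With the replicate number as a block 693 and 1938 genes and the same 2 of the 9 were called. The block pairs different animals, and same-numbered libraries had correlations of -0.08, -0.00, 0.27 and -0.12. Not every library correlated best with the one of its own number, and whether same-numbered libraries shared any handling was not tested. Depth limits young values of genes at a few RPKM.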
